A study of Mus musculus with 24 samples.

Results

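The NK-type lectin receptors are C-type lectin-like surface proteins that natural killer (NK) cells and activated CD8 T cells share. The 8 genes described here are Klrc1, Klrc2, Klrd1, Klrk1, Klri1, Klri2, Klre1 and Klrg1, chosen by name from the 55401 genes of the deposited RNA-seq table. This choice, like that of the gene lists and markers below, was made with earlier results of these data known. Counts of called genes among them are therefore set beside the share over all genes as a description only. The 8 genes were followed with the ATAC-seq peaks that lie within 20 kb of any of them, which numbered 49 of 75802. Of the 8 genes, 6 passed the filter on low counts and were tested among 14749 genes. Klri1 and Klrg1 did not pass.

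The cells were CD8 T cells of C57BL/6J mice, purified from spleen and lymph nodes with magnetic beads and activated in culture with anti-CD28 and the cytokine IL-2. All groups shared this activation. From day 2 to day 3 they received 20 mM sodium pyruvate, 20 mM sodium lactate together with Oxyrase, 20 mM sodium lactate alone, or 20 mM sodium chloride (NaCl), which served as the control. Oxyrase is a bacterial membrane preparation that removes oxygen from a medium; its amount is not given in the labels, and it was not given without lactate. RNA-seq and ATAC-seq, which reads open chromatin by transposase insertion, were each run on 3 libraries per group, 24 libraries in all, and no label says whether replicate libraries came from separate mice or cultures. The p-values therefore measure the spread between these libraries, which may be technical.

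Klrd1 encodes CD94, the shared partner chain of the NKG2 receptors. With NKG2A, the product of Klrc1, it forms an inhibitory receptor, and with NKG2C, the product of Klrc2, an activating one; both bind Qa-1, a non-classical MHC molecule encoded in mice by H2-T23 that presents leader peptides of other MHC molecules. Klrk1 encodes NKG2D, an activating receptor for stress-induced ligands that costimulates CD8 T cells. In rodents the product of Klre1 pairs with that of Klri1 into an inhibitory receptor or with that of Klri2 into an activating one. Klrg1 encodes an inhibitory receptor for cadherins and marks terminally differentiated effector T cells.

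All but Klrg1 lie close together in the NK gene complex on chromosome 6, though not all are direct neighbours. Klrc3, which is not among the 8, lies between Klrk1 and Klrc2. In GRCm38.p6 the annotated genes ran in the order Klre1 (chr6:129559365-129585828), Klrd1 (chr6:129588092-129598775), Klrk1 (chr6:129610323-129623903), Klrc2 (chr6:129649602-129660737), Klrc1 (chr6:129666015-129682852), Klri1 (chr6:129696118-129720610) and Klri2 (chr6:129729041-129740484). Klrg1 lay apart at chr6:122270596-122282833. No annotated gene overlapped any of the 8.

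RefSeq promoter windows (GRCm38.p6, 250 bases before to 50 bases after a transcription start) were found for 5 of the 8 genes, in 7 windows. No window was found for Klrd1, Klri2 or Klrg1. The 3 shown belong to the inhibitory chain, its activating relative and NKG2D, and only the first of the Klrc2 windows is printed. All are read 5′ to 3′ on the minus strand, and capitals mark matches to the motifs named in the next paragraph.
Klrc1, chr6:129678924-129679223: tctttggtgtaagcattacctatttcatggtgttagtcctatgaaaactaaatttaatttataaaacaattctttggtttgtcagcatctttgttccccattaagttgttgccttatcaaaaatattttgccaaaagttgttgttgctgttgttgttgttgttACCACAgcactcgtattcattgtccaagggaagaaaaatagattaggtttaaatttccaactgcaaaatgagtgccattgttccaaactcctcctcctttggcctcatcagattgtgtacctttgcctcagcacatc
Klrc2, chr6:129660547-129660846: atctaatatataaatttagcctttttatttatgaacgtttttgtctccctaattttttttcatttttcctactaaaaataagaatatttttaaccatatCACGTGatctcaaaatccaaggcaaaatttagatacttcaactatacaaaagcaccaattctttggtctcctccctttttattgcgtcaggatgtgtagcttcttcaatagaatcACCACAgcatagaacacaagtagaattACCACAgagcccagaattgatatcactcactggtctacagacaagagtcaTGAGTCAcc
Klrk1, chr6:129623815-129624114: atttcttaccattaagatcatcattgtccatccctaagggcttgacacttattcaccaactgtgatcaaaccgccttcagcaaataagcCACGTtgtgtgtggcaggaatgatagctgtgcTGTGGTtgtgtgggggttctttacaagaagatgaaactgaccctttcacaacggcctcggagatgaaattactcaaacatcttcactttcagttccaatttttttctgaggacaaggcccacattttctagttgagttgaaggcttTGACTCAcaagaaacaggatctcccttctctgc

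Motifs were searched on both strands as a description. The RUNX core TGTGGT, which reads ACCACA on the other strand, was present in all 3 printed windows, once in Klrc1, at 2 places in Klrc2 and once in Klrk1, and in 16.8% of 32851 RefSeq promoter windows. The AP-1 letters TGANTCA occurred in the Klrc2 and Klrk1 windows and in 7.81% of all windows. The hypoxia response core ACGTG, which reads CACGT on the other strand, also occurred in Klrc2 and Klrk1, and in 19.6% of all windows; in Klrc2 its 2 matches, one per strand, overlap. The T-box core GGTGTGA, held by 3.98% of all windows, and the STAT letters TTCNNNGAA, held by 8.3%, had 0 matches in the 7 windows. Of the windows not printed, the first Klre1 window held 1 RUNX core and no other match. The second Klre1 window and the Klri1 window held 0 matches to any of these motifs. The second Klrc2 window overlaps the printed one and holds the same matches. The whole Klrk1 window, 300 bases, lay inside an ATAC peak, while 177 of the 300 bases of the printed Klrc2 window and 49 of those of the Klrc1 window did.

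Depth was 26036288 to 39643683 estimated counts per RNA library and 25308254 to 37074367 reads in peaks per ATAC library. Principal component 1, with 45.2% of the RNA variance and 42.2% of the ATAC variance, set the 3 libraries with Oxyrase apart from the other 9 in both assays. In ATAC, NaCl replicate 3 (components 1 and 2 at -24.7 and -25.4) lay nearer the lactate libraries than its own group did, so ATAC results against NaCl are given with and without it. The 9 CD8 T cell markers were all tested and summed to 2770 to 2880 CPM (counts scaled to a common library total) with pyruvate, 2230 to 2320 CPM with lactate and Oxyrase, 2970 to 3060 CPM with lactate and 3120 to 3210 CPM with NaCl.

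Markers of NK cells were nearly absent. Ncr1, the defining receptor NKp46, had 0 counts in every library except 1 NaCl library with 2 counts, and Klrb1c (NK1.1) had 0 to 4. Of the 10 NK markers 4 passed the filter, and the list without Eomes, which CD8 T cells also express, summed to 1 to 1.25 CPM with pyruvate, 1.64 to 2 CPM with lactate and Oxyrase, 0.876 to 1.45 CPM with lactate and 0.694 to 0.994 CPM with NaCl. With Eomes the sums were 35.8 to 40.8 CPM, 19.6 to 22 CPM, 23.2 to 27.4 CPM and 28.3 to 32.9 CPM in the same 4 groups. The 6 markers of γδ and NKT cells reported here, among them Trdc and Zbtb16, summed to 1.27 to 1.58 CPM with pyruvate, 0.728 to 1.44 CPM with lactate and Oxyrase, 1.25 to 1.42 CPM with lactate and 1.37 to 1.89 CPM with NaCl.

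Klrc1, the inhibitory NKG2A chain, had 167, 172 and 171 CPM in the 3 pyruvate libraries, 203, 191 and 190 CPM with lactate and Oxyrase, 91, 90.1 and 84.8 CPM with lactate, and 73.9, 72.7 and 68.4 CPM with NaCl. The 4 groups did not overlap. Its activating relative Klrc2 had 16.9, 15.6 and 13.1 CPM with pyruvate, 20.7, 21.5 and 19.5 CPM with lactate and Oxyrase, 10.3, 9.65 and 10.9 CPM with lactate, and 6.47, 9.41 and 7.75 CPM with NaCl. These groups did not overlap either, though the highest NaCl library came close to the lowest lactate library. Klrd1, the CD94 partner of both, had 57.4, 60.5 and 59.7 CPM with pyruvate, 48.4, 50.8 and 49.7 CPM with lactate and Oxyrase, 44.7, 42.4 and 38.4 CPM with lactate, and 37.8, 36.9 and 39.1 CPM with NaCl. Here the pyruvate libraries were highest, and lactate and NaCl overlapped.

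Klrk1, encoding NKG2D, had 140, 144 and 142 CPM with pyruvate, 159, 143 and 138 CPM with lactate and Oxyrase, 129, 120 and 118 CPM with lactate, and 88.7, 100 and 104 CPM with NaCl. All NaCl libraries were below all others, and pyruvate overlapped with lactate plus Oxyrase. Klri2, the activating partner of KLRE1, had 12.3, 12.6 and 13.3 CPM with pyruvate, 23.7, 21.7 and 20.3 CPM with lactate and Oxyrase, 5.46, 6.76 and 6.01 CPM with lactate, and 5.54, 4.99 and 5.44 CPM with NaCl. Lactate with Oxyrase stood highest, pyruvate between, and lactate and NaCl overlapped. Klre1 was near the detection limit at 1.72, 1.52 and 1.63 CPM with pyruvate, 1.63, 2.24 and 1.61 CPM with lactate and Oxyrase, 1.44, 1.04 and 1.04 CPM with lactate, and 0.813, 0.974 and 1.2 CPM with NaCl. Its lowest library held 27 counts.

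Klri1 and Klrg1 were at the floor in every group. Klri1, the inhibitory partner of KLRE1, had 1, 0 and 0 counts with pyruvate, 0, 0 and 3 with lactate and Oxyrase, 0 in all 3 lactate libraries, and 2, 1 and 0 with NaCl. Klrg1 had 0, 0 and 1 counts with pyruvate, 0, 0 and 2 with lactate and Oxyrase, 4, 0 and 0 with lactate, and 0, 1 and 1 with NaCl. No difference between treatments was detectable for either gene at this depth.

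In bulk libraries such as these a change in the share of cells that transcribe a gene and a change in RNA per cell cannot be told apart. The summed CD8 T cell markers were lower with lactate and Oxyrase and with pyruvate than with NaCl while 6 Klr transcripts were higher, and the part of either shift in the other was not tested. The 4 CD4 T cell markers, all tested, summed to 14.9 to 15.4 CPM with pyruvate, 38.9 to 48.8 CPM with lactate and Oxyrase, 20.9 to 21.9 CPM with lactate and 15.6 to 17.2 CPM with NaCl. Most of that sum was Zbtb7b, while Cd4 itself had 0.304 to 0.609 CPM over all libraries. The remaining markers went the other way from the sum with lactate and Oxyrase. Foxp3 had 0.759 to 0.997 CPM there and 3.93 to 4.79 CPM with NaCl, and Cd40lg 0.296 to 0.789 CPM and 0.964 to 1.49 CPM. Of the 10 myeloid and dendritic markers 2 were tested, and the list summed to 39.2 to 43.5 CPM, 51 to 55.6 CPM, 33.9 to 36.8 CPM and 38.4 to 43.1 CPM in the same 4 groups. Nearly all of that sum was Cst3, at 33.4 to 54.3 CPM over all libraries, while Lyz2 had 0 to 3 counts and Itgax 0 to 26. Of the 6 B cell markers 3 were tested, and their list summed to 148 to 152 CPM with pyruvate, 66.7 to 77.3 CPM with lactate and Oxyrase, 189 to 198 CPM with lactate and 201 to 210 CPM with NaCl, nearly all of it Ighm. These 3 sums moved between groups, and their part in the Klr results was not tested.

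**Figure D1:**
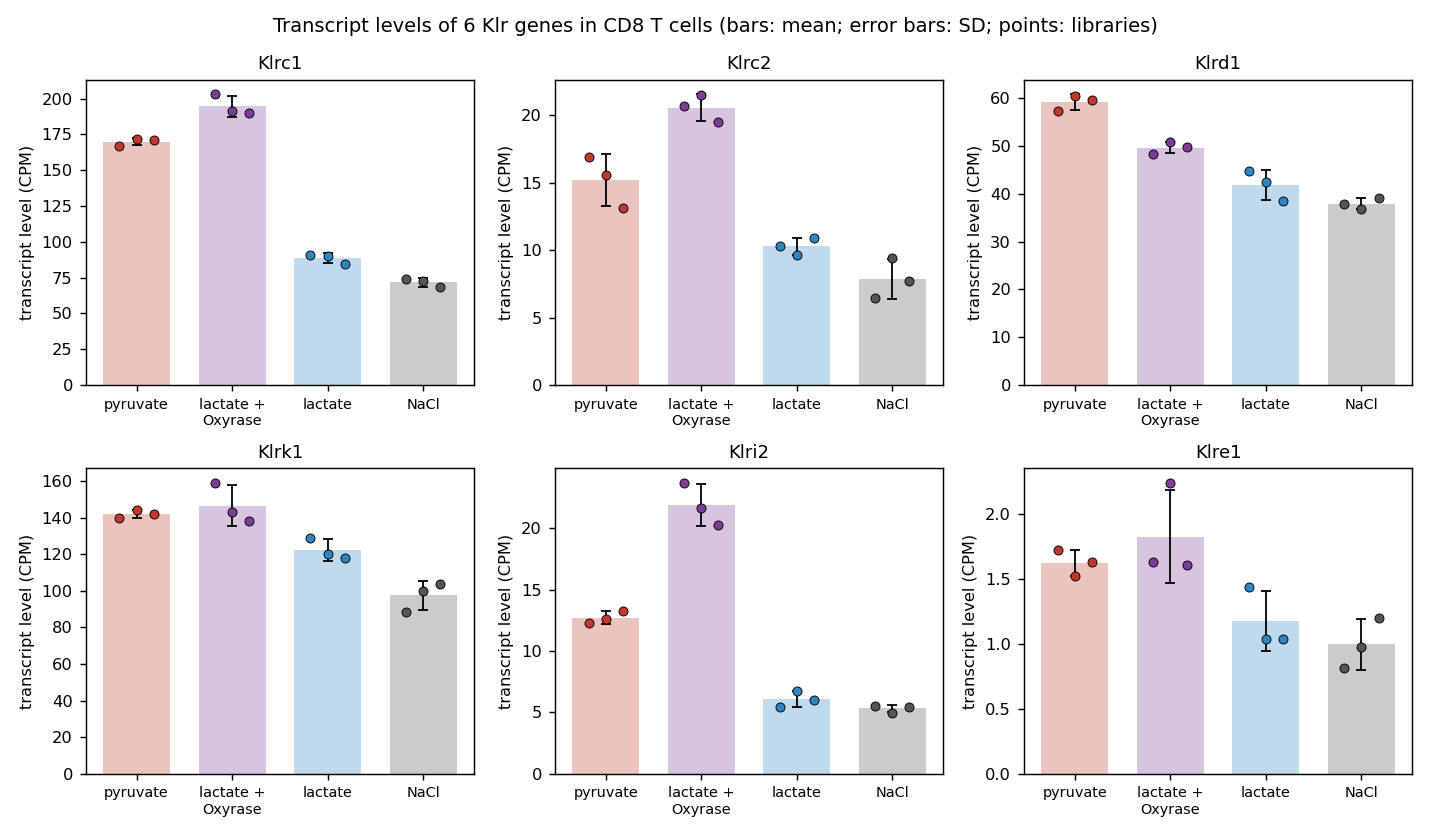
Transcript levels of the 6 Klr genes that passed the filter, in CPM (vertical axis, from 0), in pyruvate, lactate with Oxyrase, lactate and NaCl libraries; bars are means, error bars SD and points the 3 libraries of a group. Lactate with Oxyrase was highest for Klrc1, Klrc2 and Klri2, pyruvate was highest for Klrd1, and NaCl had the lowest mean in all 6 panels.

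Pyruvate against NaCl asks what the added metabolite does at an equal sodium dose. All 6 tested Klr genes rose and none fell, where 15.7% of all tested genes were called and 9.4% rose. Klri2 averaged 12.7 ± 0.548 CPM with pyruvate and 5.32 ± 0.291 CPM with NaCl (SD, n = 3 each), a 2.39-fold difference (log2 1.26 ± 0.09 SE, adjusted p = 1.89e-07 by edgeR's quasi-likelihood test with Benjamini-Hochberg adjustment). Klrc1 was 2.37-fold higher, Klrc2 1.94-fold (adjusted p = 2.71e-05), Klrd1 1.56-fold (5.08e-07) and Klrk1 1.45-fold (8.24e-06). The inhibitory chain and its activating relative thus both stood above NaCl, and so did their common partner. Klre1 was 1.64-fold higher (log2 0.72 ± 0.23, adjusted p = 0.0409), but this call was lost with DESeq2 (adjusted p = 0.0732), with no filter on low counts (0.0521), with the replicate number as a term (0.0919) and when any of NaCl replicates 1 and 2 or pyruvate replicates 1, 2 and 3 was left out (0.0752 to 0.137). The median log2 fold change of the 6 was 0.83, against 0 for all tested genes.

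Lactate against NaCl gave smaller differences. Klrc1 rose to 88.6 ± 3.37 CPM with lactate, against 71.7 ± 2.86 CPM with NaCl (log2 0.30 ± 0.04, adjusted p = 0.000425), and Klrk1 to 122 ± 5.59 CPM, against 97.7 ± 8.03 CPM (log2 0.32 ± 0.06, adjusted p = 0.00336). These 2 of 6 compare with 7.73% of all tested genes called and 3.61% higher. Klrc2 had a log2 fold change of 0.39 ± 0.12 and an adjusted p of 0.0556; DESeq2 (0.0407), no filter on low counts (0.0014) and leaving out NaCl replicate 2 (0.0212) called it. Klri2, higher by 1.26 with pyruvate, had 0.20 ± 0.10 here (adjusted p = 0.241), with a 95% interval of -0.01 to 0.41. Klrd1 had 0.14 ± 0.05 (0.127), called without lactate replicate 3 (0.0405), and Klre1 had 0.23 ± 0.23 (0.598). The median over the 6 genes was 0.27, against 0 for all genes.

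Pyruvate and lactate, a pair of closely related metabolites given at the same dose and for the same time, were also compared directly. With pyruvate 5 of 6 Klr genes were higher than with lactate and none lower, where 24% of all genes were called and 13% were higher. Klrc1 averaged 170 ± 2.57 CPM with pyruvate and 88.6 ± 3.37 CPM with lactate, a log2 fold change of 0.94 ± 0.04 (adjusted p = 1.23e-10). Klri2 differed by 1.06 ± 0.09 (3.05e-07), Klrc2 by 0.57 ± 0.11 (0.00128) and Klrd1 by 0.50 ± 0.05 (2.75e-06). The Klrk1 difference was the smallest called, 0.22 ± 0.06 (0.0107), and without lactate replicate 3 it was 0.19 (0.0552). Klre1 did not pass (0.48 ± 0.22, adjusted p = 0.122, 95% interval 0.02 to 0.94). P-values were adjusted over all genes of the comparison, and 6 pairs of groups were compared in all. This comparison shares its pyruvate and lactate libraries with the ones against NaCl.

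Lactate with Oxyrase against lactate compares libraries with and without added Oxyrase, all in the presence of lactate. Oxyrase was not given alone, so its effect apart from lactate cannot be told. All 6 tested genes were higher, where 49.7% of all genes were called and 26.1% were higher, so a called gene was common in this comparison. Klri2 averaged 21.9 ± 1.72 CPM with Oxyrase and 6.08 ± 0.653 CPM without it, 3.59-fold (log2 1.84 ± 0.09, adjusted p = 2.7e-11), and Klrc1 averaged 195 ± 7.26 CPM and 88.6 ± 3.37 CPM in the same order, 2.2-fold (log2 1.14 ± 0.04, 7.41e-13). Klrc2 differed by 1.00 ± 0.11 (7.71e-07). Klrd1 and Klrk1, by contrast, differed by 0.25 ± 0.05 (0.00081) and 0.26 ± 0.06 (0.00091). Klre1 had 0.65 ± 0.22 (0.0201); DESeq2 did not call it (0.0544), nor did the test without lactate replicate 2 (0.0701), lactate replicate 3 (0.0746) or Oxyrase replicate 2 (0.11). Against NaCl the combined treatment raised all 6 as well, Klri2 by 2.04 and Klrc1 by 1.44 on the log2 scale, where 50.8% of genes were called and 26.5% were higher.

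Lactate with Oxyrase against pyruvate separated the genes. Klrc1, Klrc2 and Klri2 were higher and Klrd1 was lower, which makes 3 and 1 of 6, where 44.2% of all genes were called, 22.9% higher and 21.2% lower. Klri2 differed by 0.78 ± 0.08 (adjusted p = 6.03e-07), Klrc2 by 0.43 ± 0.11 (0.00301) and Klrc1 by 0.20 ± 0.04 (0.000587). The partner chain Klrd1 fell by 0.25 ± 0.05 on the log2 scale (0.000703). Klrk1 (0.05 ± 0.06, 95% interval -0.07 to 0.17, adjusted p = 0.52) and Klre1 (0.17 ± 0.21, interval -0.28 to 0.62, 0.554) were not called. The treatments also differed in whether Oxyrase was present, so the metabolite and Oxyrase cannot be told apart in this pair.

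**Figure D2:**
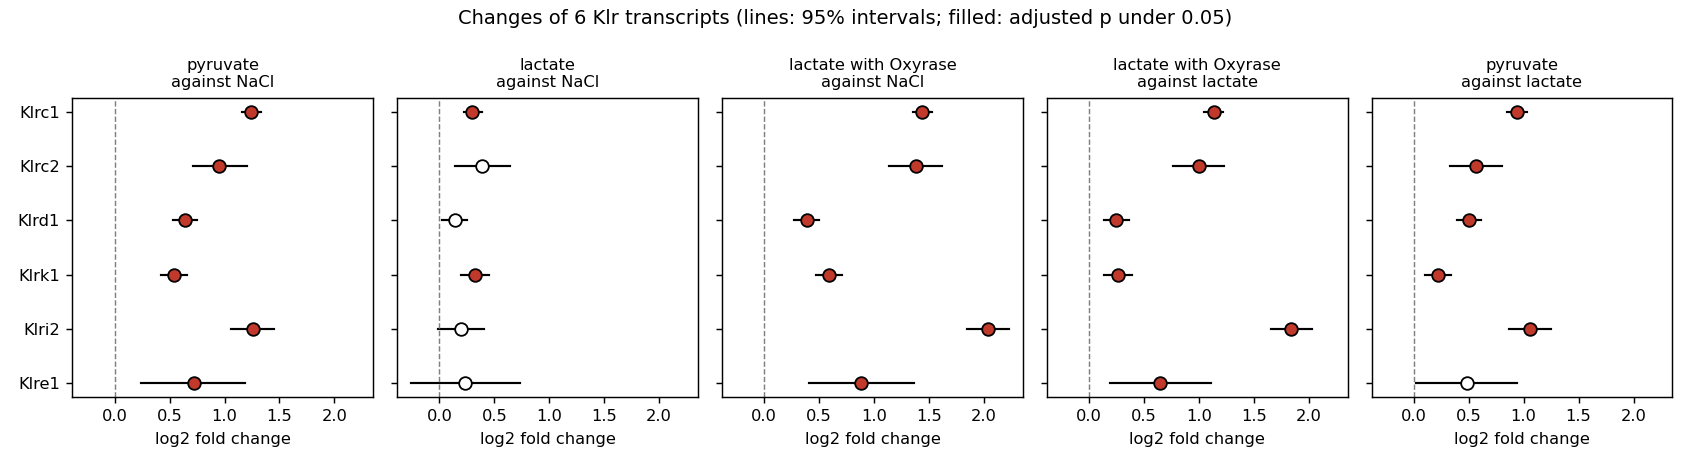
Log2 fold changes (horizontal axis) of the 6 tested Klr genes (rows) in 5 comparisons (panels); lines are 95% intervals, filled points have an adjusted p under 0.05 and open points do not. All 6 points are filled for pyruvate against NaCl and for both comparisons of lactate with Oxyrase, and 2 are filled for lactate against NaCl.

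The balance between receptor chains was read as a ratio of counts within each library. Such a ratio depends on transcript lengths, which were not used here, but its change between groups does not. Klrc1 over Klrd1, NKG2A over its CD94 partner, was 2.91, 2.84 and 2.86 with pyruvate, 4.2, 3.77 and 3.82 with lactate and Oxyrase, 2.04, 2.13 and 2.21 with lactate, and 1.96, 1.97 and 1.75 with NaCl. All 4 groups were apart, with pyruvate 1.52-fold over NaCl and lactate with Oxyrase 1.85-fold over lactate (exact two-sided permutation p = 0.1 for each, the smallest that 3 against 3 libraries can give). Klrk1 over Klrd1 was 2.43, 2.38 and 2.37 with pyruvate, 3.29, 2.82 and 2.78 with lactate and Oxyrase, 2.88, 2.83 and 3.07 with lactate, and 2.35, 2.72 and 2.66 with NaCl. It overlapped between pyruvate and NaCl (0.932-fold, exact permutation p = 0.4) and between lactate with Oxyrase and lactate (1.01-fold, p = 1). In the other 4 pairs the groups did not overlap, at an exact permutation p of 0.1 each. The ratio with lactate was 1.14-fold that with NaCl, with lactate and Oxyrase 1.15-fold that with NaCl and 1.23-fold that with pyruvate, and with pyruvate 0.819-fold that with lactate.

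Klri2 over Klre1, the activating chain over its partner, was 7.13, 8.3 and 8.19 with pyruvate, 14.6, 9.71 and 12.6 with lactate and Oxyrase, 3.8, 6.53 and 5.78 with lactate, and 6.81, 5.12 and 4.55 with NaCl. Pyruvate was 1.45-fold over NaCl and lactate with Oxyrase 2.32-fold over lactate with no overlap (exact permutation p = 0.1 for each), while lactate and NaCl overlapped (0.967-fold, p = 0.9). Klrc2 over Klrc1, activating over inhibitory NKG2 chain, averaged 0.0895 ± 0.0123 with pyruvate, 0.106 ± 0.00608 with lactate and Oxyrase, 0.116 ± 0.0113 with lactate and 0.11 ± 0.0211 with NaCl (SD, n = 3 each). It overlapped with NaCl in all 3 other groups, and was lower with pyruvate than with lactate (0.766-fold, exact permutation p = 0.1). Klrc1, Klrc2 and Klrc3, and likewise Klri1 and Klri2, are close paralogs, so reads of one could have been assigned to another by the estimated counting, and these ratios are uncertain to that extent; Klrc3 had 3 to 14 counts and Klri1 0 to 3.

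**Figure D3:**
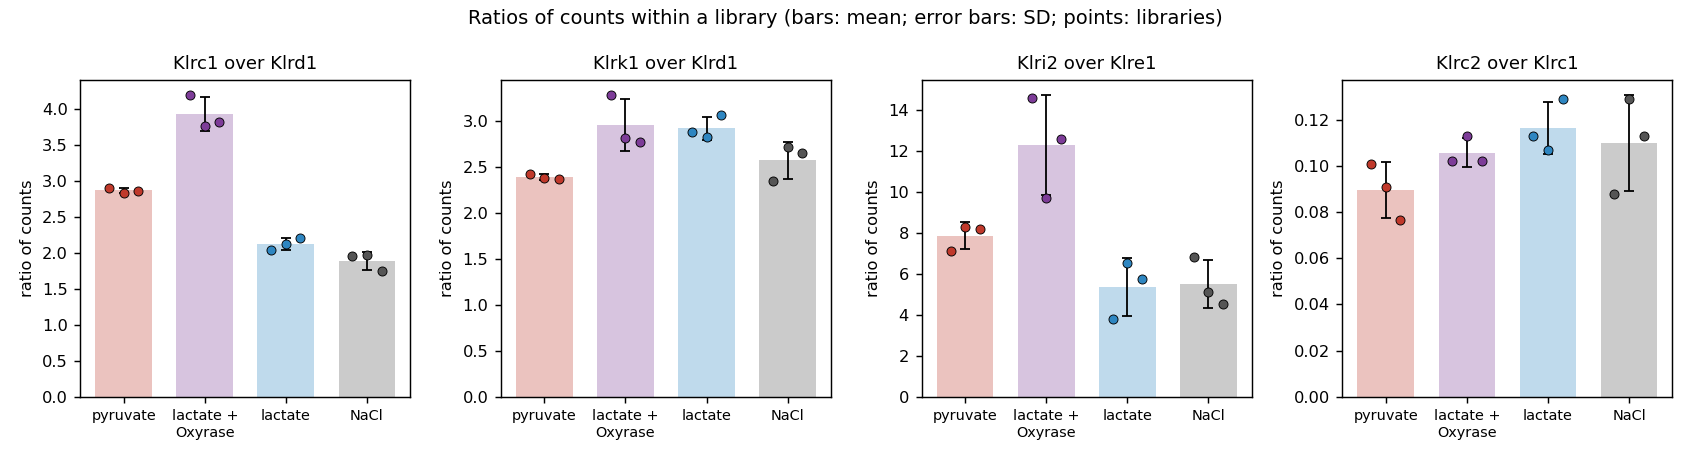
Ratios of counts between paired receptor chains within a library (vertical axes, no unit, from 0) in the 4 groups; bars are means, error bars SD and points the 3 libraries. Klrc1 over Klrd1 was 2.87 ± 0.0358 with pyruvate and 3.93 ± 0.235 with lactate and Oxyrase, against 2.12 ± 0.0872 with lactate and 1.89 ± 0.123 with NaCl.

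The receptors signal through adaptors and phosphatases, taken here from a list of 21 genes of which 19 were tested. Hcst, which encodes DAP10, the adaptor of NKG2D, was not called in pyruvate against NaCl (log2 -0.03, adjusted p = 0.964) or in lactate with Oxyrase against lactate (0.15, 0.694), at 0.593 to 1.76 CPM over all libraries. Tyrobp, encoding DAP12, on which NKG2C depends, had 8, 4 and 0 counts with pyruvate, 1, 0 and 0 with lactate and Oxyrase, 1, 10 and 13 with lactate and 0 in all NaCl libraries, and was not tested. Fcer1g had at most 11 counts. The transcripts of activating chains were therefore measured in libraries where the transcript of the usual DAP12 adaptor was at or near 0.

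Of the 19, 3 genes rose and 3 fell with pyruvate against NaCl, where 9.4% of all genes rose and 6.28% fell. With lactate and Oxyrase against lactate 5 rose and 9 fell, where 26.1% of all genes rose and 23.6% fell. Inpp5d, encoding SHIP-1, a lipid phosphatase of inhibitory receptors, averaged 91.4 CPM with pyruvate and 78.8 CPM with NaCl (log2 0.21 ± 0.04, adjusted p = 0.00131). Plcg2, a phospholipase, had 13.4 and 9.58 CPM in those groups (0.49 ± 0.08, 0.000335). Sh2d1a, encoding the SLAM adaptor SAP, fell by 0.67 ± 0.07 (4.89e-06) with pyruvate against NaCl and by 1.16 ± 0.07 (5.86e-10) with Oxyrase against lactate. Zap70 and Vav1 each fell by 0.28 ± 0.04 with Oxyrase against lactate (1.55e-05 and 1.73e-05). The list's median log2 fold change was -0.03 and -0.09 in these comparisons, against 0 for all genes.

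Among ligands, H2-T23, which encodes the Qa-1 bound by both CD94 receptors, had 225, 219 and 221 CPM with pyruvate, 252, 232 and 245 CPM with lactate and Oxyrase, 173, 174 and 170 CPM with lactate, and 180, 205 and 214 CPM with NaCl. It was higher with pyruvate than with NaCl (log2 0.15 ± 0.05, adjusted p = 0.0475), lower with lactate than with NaCl (-0.21 ± 0.05, 0.0173), and higher with lactate and Oxyrase than with lactate (0.50 ± 0.05, 2.94e-07). Its order over the 4 groups was thus that of Klrc1 at the top, but lactate lay below NaCl. Tap1 and Tap2, which encode the transporter that supplies peptides for MHC molecules, fell by 0.33 ± 0.05 (0.000687) and 0.15 ± 0.04 (0.0418) with lactate against NaCl. Of the 18 listed ligand genes 7 were tested, and 1 rose and 0 fell with pyruvate against NaCl, near the 15.7% of all genes called. With lactate against NaCl 0 rose and 3 fell, where 7.73% of all genes were called and 4.12% fell, and with lactate and Oxyrase against lactate 4 rose and 1 fell, where 49.7% were called. Ulbp1, the NKG2D ligand MULT1, did not pass in any of these 3 (adjusted p = 0.149 to 0.709), and the cadherin Cdh1 had at most 2 counts.

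Transcription factors and cytokine receptors tied to effector CD8 fate were followed as a list with 29 tested genes. With pyruvate against NaCl 13 rose and 2 fell, where 9.4% of all genes rose and 6.28% fell. With lactate against NaCl 4 rose and 1 fell (3.61% and 4.12% of all genes), and with lactate and Oxyrase against lactate 14 rose and 13 fell (26.1% and 23.6%). Prdm1, encoding the repressor Blimp-1, had 2.55, 4.28 and 4.23 CPM with pyruvate, 5.78, 6.19 and 6.49 CPM with lactate and Oxyrase, 1.58, 1.28 and 1.29 CPM with lactate, and 1.32, 1.55 and 1.08 CPM with NaCl. It rose by 1.47 ± 0.20 with pyruvate (adjusted p = 1e-04) and by 2.16 ± 0.19 with Oxyrase against lactate (5.85e-08), the groups lying in the order seen for Klri2. Zeb2, a zinc-finger repressor active in terminal effector cells, rose by 0.68 ± 0.07 (1.02e-05) and 1.47 ± 0.07 (4.53e-11), and Id2, an inhibitor of E proteins, by 1.18 ± 0.08 (2.35e-09) with Oxyrase. Eomes, a T-box factor, rose with pyruvate (0.38, 0.00358) and fell by 0.36 with Oxyrase against lactate (0.00185), and Il18r1, an IL-18 receptor chain, fell by 1.07 ± 0.04 (5.19e-13) there.

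Other NK-type receptors of CD8 T cells were followed as a list of 19, with 14 tested. With pyruvate against NaCl 8 rose and 3 fell, where 9.4% of all genes rose and 6.28% fell. With lactate against NaCl 0 rose and 1 fell, near the 7.73% of all genes called, and with lactate and Oxyrase against lactate 10 rose and 2 fell, where 26.1% rose and 23.6% fell. Havcr2, encoding the inhibitory receptor TIM-3, had 14.7, 21.3 and 20.2 CPM with pyruvate, 35.9, 35 and 39 CPM with lactate and Oxyrase, 1.51, 1.77 and 1.14 CPM with lactate, and 1.93, 0.731 and 1.35 CPM with NaCl. Its log2 fold change was 3.81 ± 0.20 with pyruvate (adjusted p = 3.74e-09) and 4.64 ± 0.19 with Oxyrase against lactate (3.5e-12). Lilrb4a, another inhibitory receptor, rose by 0.52 ± 0.08 (0.000445) and 1.38 (4.22e-10). Slamf6, a SLAM family receptor of less differentiated T cells, fell by 0.57 ± 0.08 (6.98e-05) and by 1.79 ± 0.09 (3.41e-11). Of 35 other genes of the NK complex and its families only 11 passed the filter, and 2 rose with pyruvate, Olr1 by 2.16 ± 0.22 and Clec2i by 0.61 ± 0.07, while Clec2d fell by 0.17 ± 0.06 (0.0461); over all genes 9.4% rose and 6.28% fell.

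By the Pearson correlation of log2 CPM over the 12 RNA libraries, which form separate groups, the profiles most like Klrc1 among 8639 genes were those of Glg1 (r = 0.981), Serpinb9 (0.979) and Serpinb6a (0.979). Serpinb9 encodes an inhibitor of granzyme B. Those most like Klri2 were Hspa4l (0.992), Ppp3cc (0.988) and Cd36 (0.986). Klrc2 was most like Traf5, Acadvl and Emilin2 (0.962 to 0.963), Klrd1 most like Lrrc8b (0.965) and Tes (0.95), Klrk1 most like Wdr59, Usp32 and Serpinb6a (0.94 to 0.946), and Klre1 most like Arrb1, Bnip3 and Flot1 (0.934 to 0.964). The points share groups and libraries, so these values describe likeness only.

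Chromatin around the genes was read in the 49 peaks within 20 kb, of which 28 lay in the window of more than 1 gene. With pyruvate against NaCl 0 of the 49 were called by edgeR, as were 0% of all 75802 peaks, and DESeq2 also called 0; 6 of the 49 had an unadjusted p under 0.05, and without NaCl replicate 3 the count was again 0. The largest of these differences was in the peak 0.854 kb from Klri1 (chr6:129721464-129722060), with 5.83, 6.28 and 7.41 CPM with pyruvate and 3.94, 4.1 and 4.11 CPM with NaCl. The groups did not overlap, but at a log2 fold change of 0.68 ± 0.15 the adjusted p was 0.476 (0.395 without NaCl replicate 3). One peak inside Klrc2 (chr6:129651591-129652241) had 7.48, 7.13 and 7.74 CPM with pyruvate and 6.99, 6.65 and 6.69 CPM with NaCl (log2 0.14 ± 0.13, adjusted p = 1). One inside Klrc1 (chr6:129669107-129669743) had 7.12, 6.62 and 5.49 CPM with pyruvate and 5.75, 5.21 and 4.95 CPM with NaCl (0.28 ± 0.14, 0.92). Without NaCl replicate 3 the Klrc2 peak had a log2 fold change of 0.13 (adjusted p = 0.876 by edgeR) and the Klrc1 peak 0.23 (0.812). Other peaks pointed down without passing the test. One inside Klri2 (chr6:129733582-129733998) had 3.19, 3.42 and 2.91 CPM with pyruvate and 4.63, 4.32 and 4.82 CPM with NaCl, with no overlap (log2 -0.53 ± 0.16, adjusted p = 0.655; -0.50 and 0.673 without NaCl replicate 3). One inside Klre1 (chr6:129583858-129584464) had 9.67, 12.5 and 12.5 CPM with pyruvate and 13.6, 13.1 and 15.2 CPM with NaCl, again with no overlap (-0.28 ± 0.11, 0.816; -0.21 and 0.787 without NaCl replicate 3). All 6 tested transcripts had risen in this comparison, and no accessibility change was detectable at this depth.

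With lactate against NaCl 2 of 49 peaks were higher and 0 lower, where 6.41% of all peaks were called, 1.13% higher and 5.28% lower. A peak 6.44 kb from Klre1 (chr6:129552348-129552928) had 10.3, 11.8 and 11.1 CPM with lactate and 7.72, 8.87 and 7.68 CPM with NaCl (log2 0.45 ± 0.11, adjusted p = 0.0113; 0.0206 without NaCl replicate 3). A peak 2.85 kb from Klri2 (chr6:129743333-129743864) had 18.6, 20 and 22 CPM with lactate and 15.9, 15 and 17.5 CPM with NaCl (log2 0.32 ± 0.09, adjusted p = 0.0289; 0.00512 without NaCl replicate 3). The count depended on single libraries. It was 4 without NaCl replicate 3, 1 without NaCl replicate 2, and 0 without NaCl replicate 1, lactate replicate 2 or lactate replicate 3. Over all peaks 4857 were called with every library, 11317 without NaCl replicate 3, 684 without NaCl replicate 2 and 1262 without NaCl replicate 1. Without lactate replicate 2 or 3 they were 2279 and 1147, so the share over all peaks moved as well.

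With lactate and Oxyrase against lactate 11 of 49 peaks were higher and 6 lower, where 28.4% of all peaks were called, 15.6% higher and 12.8% lower. The higher peaks of smallest p lay at the Klrc genes. The same Klrc2 peak had 15.3, 17.9 and 15.8 CPM with lactate and Oxyrase, 10.1, 7.05 and 8.29 CPM with lactate, and 6.99, 6.65 and 6.69 CPM with NaCl. The same Klrc1 peak had 12, 12.8 and 10.1 CPM with lactate and Oxyrase, 5.6, 5.9 and 6.33 CPM with lactate, and 5.75, 5.21 and 4.95 CPM with NaCl. Both were apart from all other groups, by a log2 fold change of 0.94 ± 0.12 (adjusted p = 3.18e-08) and 0.97 ± 0.13 (1.29e-07) over lactate. A peak 10.9 kb from Klri2 (chr6:129751371-129751592) was higher by 0.67 ± 0.12 (3.5e-05), and the peak 0.854 kb from Klri1 by 0.52 ± 0.14 (0.00496), the last not called without lactate replicate 1 (0.40, 0.0642).

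Of the 6 lower peaks 4 lay in or over Klre1, Klrd1 or Klrk1. The same peak inside Klre1 had 6.63, 6.83 and 7.85 CPM with lactate and Oxyrase, 14.2, 14.2 and 15 CPM with lactate, and 13.6, 13.1 and 15.2 CPM with NaCl; it fell by 1.03 ± 0.11 on the log2 scale against lactate (adjusted p = 2.83e-09). One inside Klrd1 (chr6:129592835-129593268) had 6.35, 5.39 and 4.26 CPM with lactate and Oxyrase and 9.47, 8.96 and 9.13 CPM with lactate, and fell by 0.78 ± 0.13 (1.5e-05). The peak over the Klrk1 start (chr6:129623409-129624136), which contains the printed Klrk1 window, had 15.8, 19.2 and 18.2 CPM with lactate and Oxyrase and 23.7, 23.7 and 20.7 CPM with lactate, and fell by 0.36 ± 0.10 (0.00343). The transcripts of all 3 of these genes were higher in the same comparison, so peak and transcript differed in sign there. By gene window, with peaks shared between neighbouring windows, 3 of 9 peaks were higher and 0 lower at Klrc1, 3 of 10 higher and 1 lower at Klrc2, 3 of 9 higher and 1 lower at Klri2, and 2 of 10 higher and 0 lower at Klri1. At Klrd1 1 of 12 was higher and 3 lower, at Klrk1 1 of 10 higher and 3 lower, and at Klre1 2 of 14 higher and 3 lower. The lower peak of the Klrc2 window (chr6:129640337-129640893) and the higher peak of the Klrk1 window (chr6:129642877-129643449) overlapped Klrc3. Both of these peaks were counted in both windows. Around Klrg1, whose transcript was at the floor, 2 of 7 peaks were higher and 0 lower, the 28.6% called being near the 28.4% of all peaks. With so few peaks per window and 15.6% and 12.8% of all peaks higher and lower, these counts are a description only. Whether any of these peaks acts on a particular gene was not tested.

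Against NaCl, lactate with Oxyrase had 17 peaks higher and 5 lower of 49, where 40.7% of all peaks were called, 21.5% higher and 19.2% lower. Without NaCl replicate 3 the count called was 21 of 49, and over all peaks 31281 in place of 30885. The Klrc2 peak was higher by 1.27 ± 0.12 (adjusted p = 2.54e-11) and the Klrc1 peak by 1.14 ± 0.13 (2.23e-09), and without NaCl replicate 3 by 1.26 (6.97e-11) and 1.09 (2.56e-08). Against pyruvate the same combined treatment gave 17 higher and 5 lower peaks, where 39.5% were called, 21.6% higher and 17.9% lower. Pyruvate against lactate had 1 peak higher and 7 lower, where 11.6% of all peaks were called, 6.84% higher and 4.78% lower. One of the 7, in the annotated body of Klrc1 beyond its RefSeq start (chr6:129680011-129680861), had 51.7, 53.4 and 50.2 CPM with pyruvate and 62, 64.9 and 60.6 CPM with lactate (log2 -0.27 ± 0.09, adjusted p = 0.0369), while the Klrc1 transcript was higher with pyruvate. That call was lost without any one of the 6 libraries (adjusted p = 0.0558 to 0.147) and with RLE scaling (0.0678), and the count of 8 fell to 0 to 4 when 1 library was left out. Over all peaks the 8804 calls then fell to between 3597 and 8150.

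**Figure D4:**
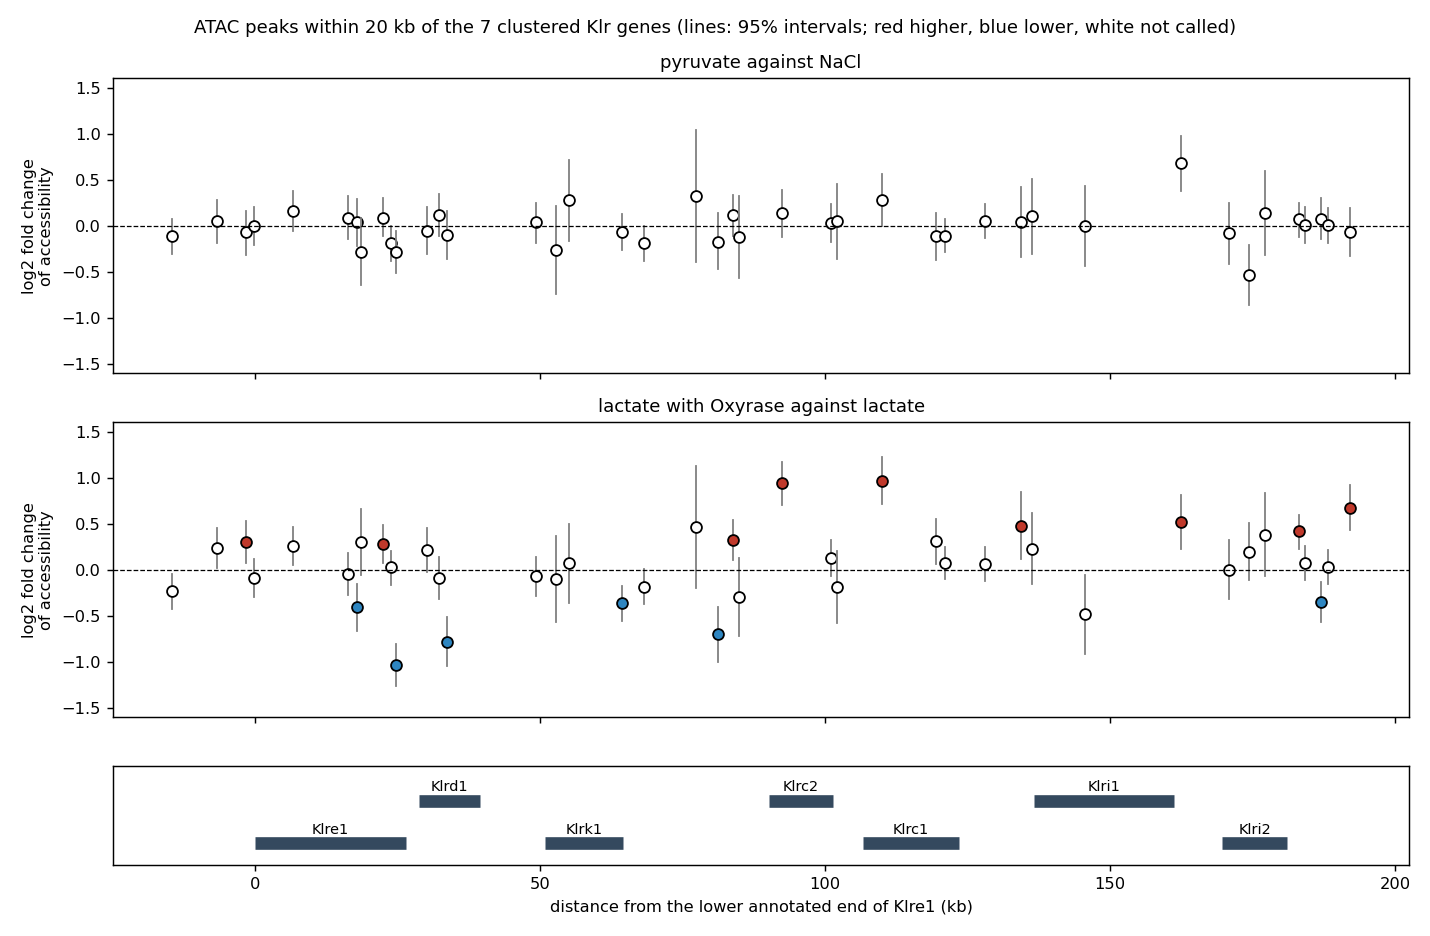
Log2 fold change of accessibility (vertical axes) of the peaks within 20 kb of the 7 clustered Klr genes, by distance in kb from the lower annotated end of Klre1 (horizontal axis), for pyruvate against NaCl and for lactate with Oxyrase against lactate; lines are 95% intervals, red and blue points are called higher and lower, white points are not called, and dark bars are genes. No point is coloured in the upper panel, and in the lower panel the 2 highest points lie in Klrc2 and Klrc1 and the lowest in Klre1.

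**Figure D5:**
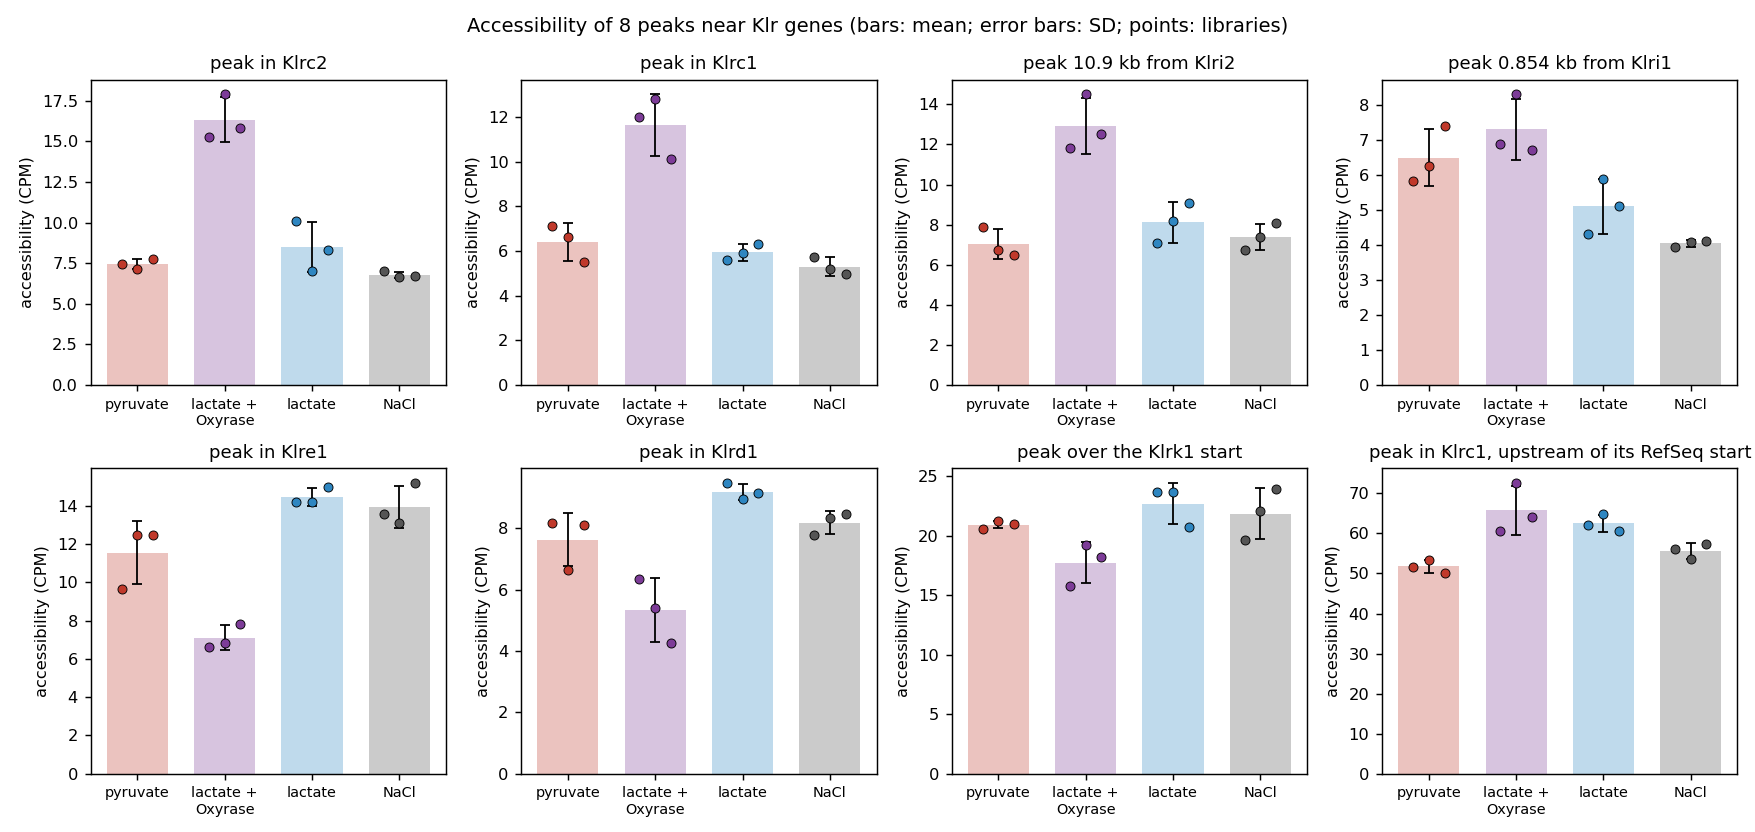
Accessibility in CPM (vertical axes, from 0) of 8 peaks near Klr genes in the 4 groups; bars are means, error bars SD and points the 3 libraries. The peaks in Klrc2, in Klrc1 and 10.9 kb from Klri2 have every library of lactate with Oxyrase above all others, and those in Klre1 and Klrd1 have them below.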

How the data were processed

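The authors deposited RNA-seq values as estimated counts per gene (RSEM 1.2.12 and Bowtie2 2.2.0, per the submitters' processing notes) and ATAC-seq values as read counts in peaks of mm10. Other tools in those notes are edgeR 3.20.9, MACS2, Picard, BWA, bedtools and Trimmomatic. RNA libraries were poly(A) captured with a kit that does not mark strand, per the labels. In the deposited estimated counts a whole number, within 1e-09, made up 99.24% of non-zero values. Non-whole values above 1 occurred in 460 genes, and 448 of these had only zeros in 1 replicate number. The values may thus have been adjusted for replicate number before deposit, which would make the spread within groups, and so the RNA p-values, too small. Of the values of the 8 genes, 0 were not whole. This is so for most genes, and it does not set the 8 apart from the genes that may have been adjusted.

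Counts were rounded, filtered with filterByExpr (minimum count 10), scaled by TMM and fitted over all 12 libraries of an assay with edgeR 4.0.16's quasi-likelihood model (8 residual degrees of freedom, no replicate term). P-values were two-sided, with Benjamini-Hochberg adjustment over every feature tested and a threshold of 0.05; SE and 95% intervals come from the same fit. CPM use TMM-scaled totals. The ratios were tested by exact permutation of libraries. Alternatives were RLE or no scaling, no filter, a replicate block, only the 2 groups compared, DESeq2 1.42.0, each library left out, windows of 5 and 50 kb and a trended scaling (loess span 0.3). The fits were tested on simulated data. Deviations of same-numbered libraries correlated at -0.21 to -0.08 in RNA, where an adjustment by replicate number would have removed a shared deviation, so these values cannot show whether the numbers pair the samples. In ATAC the correlations of -0.15 to 0.17 were not all over 0.1. No label ties a number to an animal, culture or day, so no pairing was used.

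Symbols came from the reference table (55141 of 55401 matched), gene coordinates and promoter windows from RefSeq GRCm38.p6. The Klr genes, pathway lists and markers were chosen with earlier results of these data known. Named were all 8 genes, up to 4 called genes of largest change per pathway list, the 3 most alike genes (mean log2 CPM 3 or more), and per gene up to 4 called peaks of smallest p and the peak nearest its start; Hcst, Tyrobp, Fcer1g, Ulbp1, Cdh1 and Eomes were named outside this rule after their values were seen. Some genes within the lists and the rule are not reported here. Analyses ran in R 4.3.3 with limma 3.58.1 and Python 3.11.15 with matplotlib 3.10.9, pandas 2.3.3 and numpy 2.4.6.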

Additional observations from a re-analysis of the deposited data

How the results depend on the processing

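The number of the 6 tested Klr genes called stayed within 1.5 times its value under every alternative tried, with ranges when 1 library was left out of 5 to 6 for pyruvate against NaCl, 2 to 3 for lactate against NaCl, 6 to 6 for lactate with Oxyrase against NaCl, 5 to 6 for lactate with Oxyrase against lactate, 4 to 5 for pyruvate against lactate and 4 to 4 for lactate with Oxyrase against pyruvate. Of the 2 single values that changed sign, both uncalled and both for lactate with Oxyrase against pyruvate, Klrk1 was -0.01 without Oxyrase replicate 1 (range -0.01 to 0.09 over left-out libraries) and Klre1 was 0 without Oxyrase replicate 2 (range 0 to 0.26). Peak counts moved more. For lactate against NaCl the count of 2 became 6 with library totals only, 5 with trended scaling, and 1 with only the 2 groups compared or a window of 5 kb, and ranged from 0 to 4 when 1 library was left out. For pyruvate against lactate the count of 8 became 4 with RLE scaling and ranged from 0 to 4 when 1 library was left out. Calls over all peaks moved as well with 1 library left out. They ranged from 684 to 11317 for lactate against NaCl and from 3597 to 8150 for pyruvate against lactate. For lactate with Oxyrase the count against lactate was 11 with a window of 5 kb and ranged from 12 to 18 over left-out libraries, that against pyruvate ranged from 14 to 22, lowest without Oxyrase replicate 2, and that against NaCl from 15 to 21. The smaller windows hold fewer peaks, 34 at 5 kb; otherwise the cause was not tested. Of the called or printed single peak values, 21 lost their call under other settings, where 413 did not, and 73 with a library left out, where 299 did not. None of these values changed sign, but uncalled values that were not printed, many near 0, had been left out beforehand. The sign count can therefore say little. Some of the 413 and 299 were printed values not called to begin with, which had no call to lose.

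With the replicate number as a block, 5 Klr genes were called for pyruvate against NaCl, Klre1 being lost at a log2 fold change of 0.71, and 2, 6, 6, 5 and 4 for lactate against NaCl, lactate with Oxyrase against NaCl and against lactate, pyruvate against lactate, and lactate with Oxyrase against pyruvate. The block gave 3, 0, 22, 21, 8 and 22 peaks of 49 for lactate against NaCl, pyruvate against NaCl, lactate with Oxyrase against NaCl and against lactate, pyruvate against lactate, and lactate with Oxyrase against pyruvate. Over all peaks it called 6775, 1, 32437, 23712, 10845 and 31397 in the same order. Those stand in place of 4857, 0, 30885, 21539, 8804 and 29906, so ATAC calls rose with the block in every comparison. Libraries with different numbers had correlations of -0.04 to 0.16 in RNA and -0.2 to 0.17 in ATAC. Over all genes, by contrast, the block called fewer in every comparison. It called 671 for lactate against NaCl in place of 1140, and 1719 for pyruvate against NaCl in place of 2313. Depth limits Klre1, at 27 counts in its lowest library, and leaves Klri1 and Klrg1 untested.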

Other observations

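Both chains of the IL-18 receptor, a cytokine receptor of effector CD8 T cells, were called with pyruvate against NaCl. Il18rap, the accessory chain, averaged 78.9 CPM with pyruvate and 43.7 CPM with NaCl, a log2 fold change of 0.85 ± 0.05 (edgeR adjusted p = 3.74e-09), and differed by -0.02 (adjusted p = 0.777) between lactate with Oxyrase and lactate. Il18r1, the binding chain, was higher by 0.13 with pyruvate against NaCl (0.0191) and fell by 1.07 with Oxyrase against lactate. Runx1, a factor of the RUNX family, averaged 9.68 CPM with pyruvate and 6.11 CPM with NaCl (log2 0.66 ± 0.10, 0.000407). Olr1, a lectin-like receptor of the NK complex best known from endothelium and macrophages, averaged 13.8 CPM with lactate and Oxyrase and 0.324 CPM with lactate (log2 5.39 ± 0.21, 2.12e-12).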
